A study of Mus musculus with 9 samples.

Results

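The genes described here are 34 mouse genes known from blood vessels and blood: 19 endothelial genes, 11 mural genes and 4 erythroid genes. They are a list of symbols known for these cell types, set by no rule on measured values but drawn up with earlier results of these data known. The deposited table holds 78275 gene IDs, of which 27773 passed a filter on low counts and were tested. All 34 genes are in the table and 25 of them were tested: 11 of 19 endothelial, 10 of 11 mural and 4 of 4 erythroid genes. A gene can pass that filter through 1 group alone, so counts over the tested members are not counts over all members.

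RNA came from mCherry-positive cells of the cerebral cortex of wild-type mouse embryos, isolated by fluorescence-activated sorting at E16.5. The hairpins had been introduced 48 h earlier, at E14.5, by in utero electroporation. Each plasmid expressed mCherry together with a microRNA-embedded short hairpin RNA, directed against Gpc4 in the sh-Gpc4 group, against Gpc2 in the sh-Gpc2 group, and scrambled in the sh-NT control group. The products of both target genes are glypicans, cell-surface proteoglycans that carry heparan sulfate, and the series asks how losing each one affects cortical development. There were 3 libraries in each group, and all 9 come from electroporated, sorted wild-type cells, so no unsorted tissue and no uninjected control is among them. Both knockdown groups are hairpin models, in which a transcript is lowered and not deleted. The labels describe the sorted cells as cortical progenitors and neurons and name no gate that removes vascular cells. Nothing in them tells whether replicate libraries stem from different litters, so p-values measure the spread between these libraries only. Libraries are named here by the numbers of the table's columns: 1, 3 and 4 for sh-Gpc4, 1, 2 and 4 for sh-Gpc2, and 1, 2 and 4 for sh-NT. Values given in sequence follow that order.

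Vessels of the embryonic cortex are tubes of endothelial cells wrapped by mural cells, the pericytes and smooth muscle cells. Brain endothelium builds the blood-brain barrier by sealing its junctions and by carrying selected transporters, and it recruits pericytes by secreting a ligand for the receptor that Pdgfrb encodes. The blood inside holds primitive erythrocytes, which come from the yolk sac and carry embryonic globins, and definitive erythrocytes, which come from the fetal liver and carry adult globins. None of these cells derives from the neural progenitors that line the ventricle, the cells that electroporation reaches.

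Each library had between 48045603 and 66538437 assigned reads. Levels are in CPM, a gene's reads per 1000000 assigned reads, with library sizes scaled by the trimmed mean of M-values (TMM), and 3 reads, the floor used here, corresponded to 0.0442 to 0.061 CPM. A first principal component held 71.6% of the variance, and sh-Gpc4 library 3 (46.7) and sh-Gpc2 library 4 (36.6) lay far from the other libraries on it, the next being sh-Gpc4 library 4 (15.8). Gpc4 itself had 137, 99.9 and 129 CPM in the sh-Gpc4 libraries, against 165, 188 and 175 CPM in the sh-NT libraries. The fold change was -0.53 in log2 (SE 0.21), with an adjusted p of 0.488 by the edgeR quasi-likelihood test. Gpc2 had 167, 145 and 79.6 CPM in the sh-Gpc2 libraries, against 200, 207 and 161 CPM in the sh-NT libraries, a log2 fold change of -0.54 (SE 0.33; edgeR adjusted p = 0.968). Gpc2 was also low in the sh-Gpc4 libraries, at 168, 70.3 and 96.6 CPM, or -0.76 over sh-NT (SE 0.33; unadjusted p = 0.0465, edgeR adjusted p = 0.488), so its level does not separate the knockdown groups. Genes known from the labelled cell types covered a wide range of levels. Of 12 excitatory neuron genes, Neurod6 was the highest, at 550 CPM per kilobase of exon, and Tbr1 the lowest, at 6.66. Of 11 radial glia genes, Fabp7 was the highest, at 554 CPM per kilobase, and Hopx the lowest, at 0.502. In bulk RNA, fewer cells of a type and less RNA per cell cannot be told apart.

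The members split into a few abundant genes and many at low levels. Of the endothelial genes, 13 of 19 had a mean below 1 CPM, and 3 (Slco1c1, Ramp2 and Mfsd2a) held 92.5% of the summed level of their class, of which the Ramp2 row is limited by an overlap described with it. Of the mural genes, 5 of 11 had a mean below 1 CPM and none reached 10 CPM. Of the erythroid genes, 3 globins had means from 30.2 to 50.5 CPM, and Alas2 averaged 3.74 CPM. Set per kilobase of exon, the globins Hbb-y (63.0 CPM per kilobase) and Hba-x (53.8) were the most abundant members, above Hba-a1 (37.2), Ramp2 (18.3) and Slco1c1 (13.9), and far above Pdgfrb (0.822) and the barrier claudin gene Cldn5 (0.217). The Hba-a1 level is limited by a duplicate gene, described with it.

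**Figure D1:**
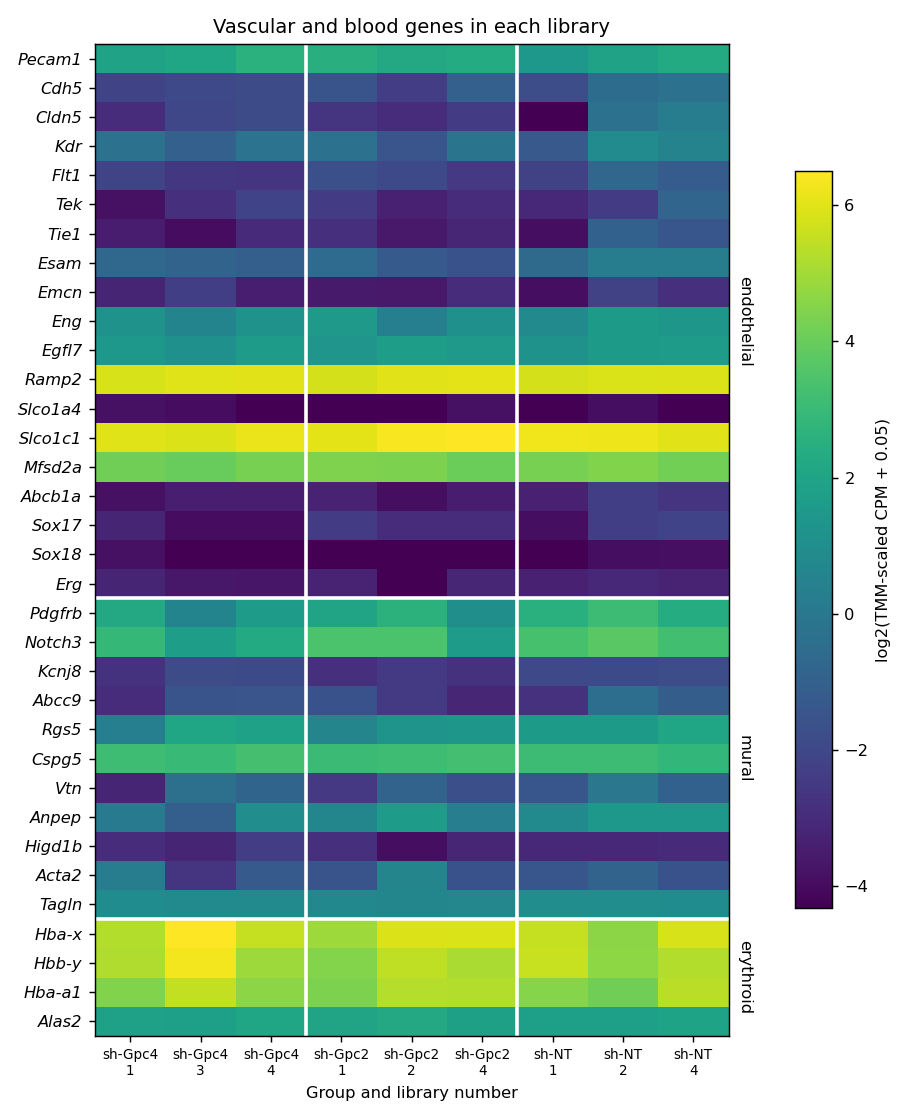
Level of all 34 members in each of the 9 libraries, as log2(TMM-scaled CPM + 0.05); rows are genes, ordered by class, and columns are libraries, with white lines between groups and classes. Slco1c1, Ramp2 and the 3 globins form the bright rows, 10 of 19 endothelial genes stay below 1 CPM in every library, and Cldn5 has 0 reads in sh-NT library 1.

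Erythroid members are described first. Hba-x encodes the zeta chain and Hbb-y the epsilon-y chain, the alpha-type and beta-type chains of embryonic haemoglobin. Hba-a1 encodes an adult alpha chain, and Alas2 the erythroid enzyme that begins haem synthesis. In red cell precursors the factors GATA1 and KLF1 bind promoters of such genes at GATA and CACCC elements. The promoters of the 4 genes are printed as background, and a link between their elements and the levels was not tested. Each runs from 250 bases before the start of the gene to 50 after it, 5' to 3' on the gene's strand, from RefSeq on GRCm38.p6, which held an entry for 24 of the 34 members. Capitals mark 4 elements on either strand, so that a match on the other strand reads as the reverse complement: the GATA word, which is AGATAA or else TGATAA, the KLF1 word CACCC, the CCAAT box, and the TATA word TATAAA. Hba-x lies at chr11:32276350-32276649 (plus strand), Hbb-y at chr7:103853158-103853457 (minus), Hba-a1 at chr11:32283422-32283721 (plus) and Alas2 at chrX:150547167-150547466 (plus).
Hba-x: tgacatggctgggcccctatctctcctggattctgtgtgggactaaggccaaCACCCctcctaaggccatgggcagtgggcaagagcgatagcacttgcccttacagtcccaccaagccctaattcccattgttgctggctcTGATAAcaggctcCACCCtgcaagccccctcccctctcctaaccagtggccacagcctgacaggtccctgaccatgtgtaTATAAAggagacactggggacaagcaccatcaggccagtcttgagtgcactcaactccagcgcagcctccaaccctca
Hbb-y: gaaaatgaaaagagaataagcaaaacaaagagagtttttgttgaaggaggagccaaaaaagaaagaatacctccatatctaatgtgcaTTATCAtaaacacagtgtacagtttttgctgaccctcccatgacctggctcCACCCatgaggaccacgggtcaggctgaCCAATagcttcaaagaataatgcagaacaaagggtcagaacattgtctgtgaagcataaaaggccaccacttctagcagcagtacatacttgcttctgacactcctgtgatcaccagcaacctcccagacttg
Hba-a1: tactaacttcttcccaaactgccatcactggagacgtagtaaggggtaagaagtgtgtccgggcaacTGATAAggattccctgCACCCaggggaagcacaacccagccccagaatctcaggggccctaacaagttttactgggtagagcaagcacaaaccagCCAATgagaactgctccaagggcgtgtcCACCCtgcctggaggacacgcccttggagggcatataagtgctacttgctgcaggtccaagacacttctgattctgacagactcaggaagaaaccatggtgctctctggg
Alas2: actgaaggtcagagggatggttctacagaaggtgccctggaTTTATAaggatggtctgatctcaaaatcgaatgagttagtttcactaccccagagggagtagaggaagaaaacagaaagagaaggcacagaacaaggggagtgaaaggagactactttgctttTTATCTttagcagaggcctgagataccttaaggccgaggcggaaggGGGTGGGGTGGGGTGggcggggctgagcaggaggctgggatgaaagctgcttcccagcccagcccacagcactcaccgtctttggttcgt
All 4 promoters hold 1 GATA word each, and CACCC occurs 2 times in Hba-x, 1 time in Hbb-y, 2 times in Hba-a1 and 3 times in Alas2. Of the 32851 promoters of the same length, 18.6% hold a GATA word, 57.5% hold CACCC and 8.96% hold both. CCAAT was found in Hbb-y and Hba-a1 (37.4% of all promoters) and TATAAA in Hba-x and Alas2 (13.6%). The ETS word GGAA, searched as well and left in lower case, is in 96.0% of all promoters and its longer form CGGAAG in 16.9%, and among these 4 the longer form was found in Alas2 alone. CGGAAG contains GGAA, so each match of the longer form is counted under both.

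Hba-x had 38.5, 90.1 and 46.4 CPM in the sh-Gpc4 libraries, 30.0, 61.4 and 59.1 CPM in the sh-Gpc2 libraries, and 46.9, 24.5 and 57.7 CPM in the sh-NT libraries. The highest value was in sh-Gpc4 library 3 and the lowest in sh-NT library 2, and all groups overlapped. Its log2 fold change was 0.44 (SE 0.41, 95% interval -0.47 to 1.35) for sh-Gpc4 over sh-NT, with an adjusted p of 0.616 by edgeR, and -0.01 without sh-Gpc4 library 3. For sh-Gpc2 over sh-NT it was 0.22 (SE 0.41, interval -0.69 to 1.13; edgeR adjusted p = 0.968).

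Hbb-y had 36.4, 79.7 and 30.3 CPM in the sh-Gpc4 libraries, 22.7, 43.4 and 34.8 CPM in the sh-Gpc2 libraries, and 48.5, 25.0 and 38.3 CPM in the sh-NT libraries. Again sh-Gpc4 library 3 stood above all others, and without that library the remaining sh-Gpc4 values lay inside the sh-NT range. The log2 fold change for sh-Gpc4 over sh-NT was 0.39 (SE 0.39; edgeR adjusted p = 0.641), and -0.15 without sh-Gpc4 library 3. That for sh-Gpc2 over sh-NT was -0.15 (SE 0.39; edgeR adjusted p = 0.972). Between the knockdowns, sh-Gpc4 over sh-Gpc2 gave 0.54 (SE 0.39; edgeR adjusted p = 0.966) and -0.02 without sh-Gpc4 library 3.

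Hba-a1 had 22, 45.9 and 24.2 CPM in the sh-Gpc4 libraries, 20.7, 38.6 and 38.1 CPM in the sh-Gpc2 libraries, and 23.3, 17.7 and 41.2 CPM in the sh-NT libraries. Each group held at least 1 high and 1 low library, and the groups overlapped. Its log2 fold change was 0.16 (SE 0.38; edgeR adjusted p = 0.852) for sh-Gpc4 over sh-NT and 0.25 (SE 0.38; edgeR adjusted p = 0.968) for sh-Gpc2 over sh-NT. Leaving out sh-Gpc4 library 3 gave -0.24 for sh-Gpc4 over sh-NT. Of the 100-base windows of the longest Hba-a1 transcript, 56.5% occur also in its duplicate Hba-a2, so the split of reads between these 2 rows is uncertain. Both rows would be too low if reads that fit both genes were left uncounted.

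Alas2 was flat by comparison, at 3.58, 3.37 and 4.05 CPM in the sh-Gpc4 libraries, 3.99, 4.58 and 3.50 CPM in the sh-Gpc2 libraries, and 3.38, 3.36 and 3.80 CPM in the sh-NT libraries. Its highest library was 1.36 times its lowest, against 3.68 times for Hba-x, 3.51 times for Hbb-y and 2.59 times for Hba-a1. Log2 fold changes were 0.06 (SE 0.15; edgeR adjusted p = 0.861) for sh-Gpc4 over sh-NT and 0.20 (SE 0.15; edgeR adjusted p = 0.968) for sh-Gpc2 over sh-NT. Exons of Alas2 overlap those of Apex2, a DNA repair gene on the opposite strand with 21.8 to 27.1 CPM, over 311 of 2403 bases. The strand setting of the authors' counting, not given in the sources used here, decides whether part of the Alas2 row is Apex2 reads.

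The other globins place the 3 members in context. Summed over 7 globin genes (the 3 members with Hba-a2, Hbb-bs, Hbb-bt and Hbb-bh1), the level was 129, 280 and 147 CPM in the sh-Gpc4 libraries, 111, 225 and 206 CPM in the sh-Gpc2 libraries, and 156, 101 and 212 CPM in the sh-NT libraries. The highest and lowest libraries of that sum were sh-Gpc4 library 3 and sh-NT library 2, as for Hba-x. The adult beta gene Hbb-bs had 38.1 CPM per kilobase and the embryonic beta gene Hbb-bh1 had 1.24 CPM per kilobase. Slc4a1, encoding the band 3 anion exchanger of the red cell membrane, was close to 0, at 0.0407 to 0.106 CPM.

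Embryonic chains made up a large share of the globin reads counted. Adult genes share 100-base windows with a duplicate: 56.5% for Hba-a1, 74.5% for Hba-a2, 62.6% for Hbb-bs and 54.8% for Hbb-bt. No such window of Hba-x, Hbb-y or Hbb-bh1 was found in another gene. If reads that fit both duplicates were left uncounted, adult chains would be undercounted and embryonic shares too high, which was not tested. Hbb-y and Hbb-bh1 together gave 65.0%, 68.5% and 50.6% of beta-type reads in the sh-Gpc4 libraries, 47.6%, 43.6% and 40.7% in the sh-Gpc2 libraries, and 67%, 52.7% and 43.9% in the sh-NT libraries. The sh-Gpc4 libraries lay above the sh-Gpc2 libraries with no overlap, and both overlapped the sh-NT libraries. Group means were 61.4% ± 9.49 for sh-Gpc4, 44.0% ± 3.46 for sh-Gpc2 and 54.5% ± 11.7 for sh-NT (SD, n = 3 each). Hba-x gave 53.2%, 56.1% and 54.0% of alpha-type reads in the sh-Gpc4 libraries, 48.1%, 49.6% and 49.7% in the sh-Gpc2 libraries, and 56.9%, 46.6% and 46.9% in the sh-NT libraries. This share did not overlap between sh-Gpc4 and sh-Gpc2 and overlapped sh-NT for sh-Gpc4 and for sh-Gpc2. For comparison, the levels of 3.5% of all tested genes were higher without overlap in sh-Gpc4 than in sh-Gpc2, and 2% were lower. The alpha-type and beta-type shares come from the same libraries and are not independent of each other. Both shares were computed after the levels had been seen and were not tested; 3 libraries against 3 cannot give an exact permutation p below 0.1.

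**Figure D2:**
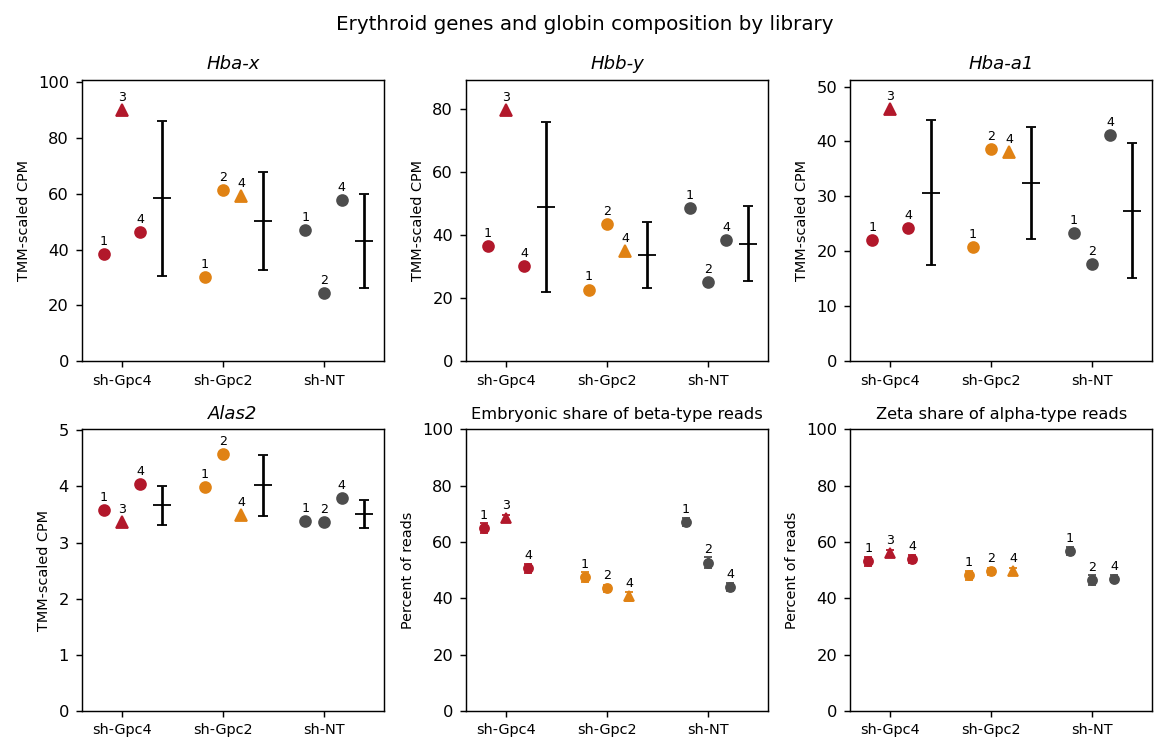
Level of the 4 erythroid members (TMM-scaled CPM) and, in the last 2 panels, the percentage of beta-type reads from Hbb-y and Hbb-bh1 and of alpha-type reads from Hba-x, with 95% Wilson intervals for counting error. Points are libraries with their numbers, triangles mark sh-Gpc4 library 3 and sh-Gpc2 library 4, and black bars are means ± SD; sh-Gpc4 library 3 is the highest for all 3 globins (90.1 CPM for Hba-x), while Alas2 stays between 3.36 and 4.58 CPM.

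Endothelial genes with a mean below 1 CPM are described first. Pecam1, Eng and Egfl7, with means of 4.45, 2.15 and 2.75 CPM, come after them. Cldn5, the claudin that seals junctions of brain endothelium (chr16:18776847-18778262, GRCm38, plus strand), had 4, 13 and 16 reads in the sh-Gpc4 libraries, 6, 5 and 7 reads in the sh-Gpc2 libraries, and 0, 47 and 64 reads in the sh-NT libraries. In CPM these were 0.0799, 0.195 and 0.236 for sh-Gpc4, 0.106, 0.0807 and 0.142 for sh-Gpc2, and 0, 0.793 and 1.13 for sh-NT. The sh-NT group thus held both the lowest library and the 2 highest, and a count of 0 in sh-NT library 1 allows up to 0.0483 CPM. Its log2 fold change was -1.85 (SE 0.93, interval -3.94 to 0.25; edgeR adjusted p = 0.488) for sh-Gpc4 over sh-NT and -2.54 (SE 1.02, interval -4.84 to -0.24; edgeR adjusted p = 0.968) for sh-Gpc2 over sh-NT. With limma voom and sample weights the sign turned, to 1.16 and 0.30 in these 2 comparisons.

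Cdh5, encoding the VE-cadherin of endothelial junctions, had 0.180, 0.210 and 0.236 CPM in the sh-Gpc4 libraries, 0.300, 0.145 and 0.448 CPM in the sh-Gpc2 libraries, and 0.241, 0.658 and 0.761 CPM in the sh-NT libraries. All sh-Gpc4 values were below all sh-NT values, the closest pair being sh-Gpc4 library 4 (16 reads) and sh-NT library 1 (15 reads). The log2 fold change was -1.38 (SE 0.48, interval -2.47 to -0.30) for sh-Gpc4 over sh-NT, with an unadjusted p of 0.0178 and an adjusted p of 0.488 by edgeR. It was -0.91 (SE 0.47; edgeR adjusted p = 0.968) for sh-Gpc2 over sh-NT, where the groups overlapped, and -0.57 without sh-Gpc2 library 2.

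Esam, an adhesion molecule of endothelial junctions and platelets, had 0.559, 0.495 and 0.427 CPM in the sh-Gpc4 libraries, 0.636, 0.371 and 0.285 CPM in the sh-Gpc2 libraries, and 0.612, 1.13 and 1.15 CPM in the sh-NT libraries. Here too sh-NT libraries 2 and 4 were the highest, and sh-NT library 1 lay close to the knockdown libraries. Its log2 fold changes were -0.97 (SE 0.33, unadjusted p = 0.0163, edgeR adjusted p = 0.488) for sh-Gpc4 over sh-NT, with no overlap, and -1.15 (SE 0.34, unadjusted p = 0.00736, edgeR adjusted p = 0.968) for sh-Gpc2 over sh-NT, with overlap.

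Kdr and Flt1 encode the VEGF receptors VEGFR2 and VEGFR1. Kdr had 0.759, 0.450 and 0.825 CPM in the sh-Gpc4 libraries, 0.777, 0.307 and 0.834 CPM in the sh-Gpc2 libraries, and 0.354, 1.79 and 1.36 CPM in the sh-NT libraries. Flt1 had 0.180, 0.120 and 0.103 CPM in the sh-Gpc4 libraries, 0.265, 0.210 and 0.122 CPM in the sh-Gpc2 libraries, and 0.161, 0.540 and 0.389 CPM in the sh-NT libraries. Both receptors were highest in sh-NT libraries 2 and 4 and overlapped between the groups through sh-NT library 1. Their log2 fold changes for sh-Gpc4 over sh-NT were -0.78 (SE 0.55; edgeR adjusted p = 0.533) for Kdr and -1.45 (SE 0.48; unadjusted p = 0.0138, edgeR adjusted p = 0.488) for Flt1. For sh-Gpc2 over sh-NT they were -0.88 (SE 0.55) for Kdr and -0.84 (SE 0.46) for Flt1, both with an adjusted p of 0.968 by edgeR. Kdr moved to -1.22 without sh-NT library 1 and -0.33 without sh-NT library 2 for sh-Gpc4, and to -1.31 and -0.43 without the same libraries for sh-Gpc2, where Flt1 was -1.20 and -0.44.

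The angiopoietin receptor genes Tek and Tie1, the sialomucin gene Emcn, the transporter genes Slco1a4 and Abcb1a and the transcription factor genes Sox17, Sox18 and Erg did not pass the filter. Tie1 had 2, 1 and 5 reads in the sh-Gpc4 libraries, 5, 2 and 3 reads in the sh-Gpc2 libraries, and 1, 27 and 18 reads in the sh-NT libraries. Slco1a4 had 4 reads and Sox18 had 3 reads over all 9 libraries, and Erg had 23, so nothing can be said of their differences at this depth.

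The same 2 libraries, singled out after the values were seen, recurred as the highest. The library with the highest level was sh-NT 2 or sh-NT 4 for 7 of the 11 tested endothelial genes (63.6%), 6 of the 10 tested mural genes (60.0%) and 0 of 4 erythroid genes, against 21.8% of all genes tested. Over all members, tested or not, it was so for 13 of 19 endothelial and 6 of 11 mural genes. Summed over the 13 endothelial genes with a mean below 1 CPM, a selection made after the levels were seen, the level was 2.06, 1.83 and 2.21 CPM in the sh-Gpc4 libraries, 2.6, 1.32 and 2.26 CPM in the sh-Gpc2 libraries, and 1.58, 6.08 and 6.09 CPM in the sh-NT libraries. Library 1 of sh-NT lay among the knockdown libraries in this sum, and sh-NT libraries 2 and 4 lay above all others. The globin sum did not follow it: among all libraries it was lowest in sh-NT library 2 (101 CPM) while in sh-NT library 4 (212 CPM) it was exceeded by sh-Gpc4 library 3 and sh-Gpc2 library 2 alone.

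**Figure D3:**
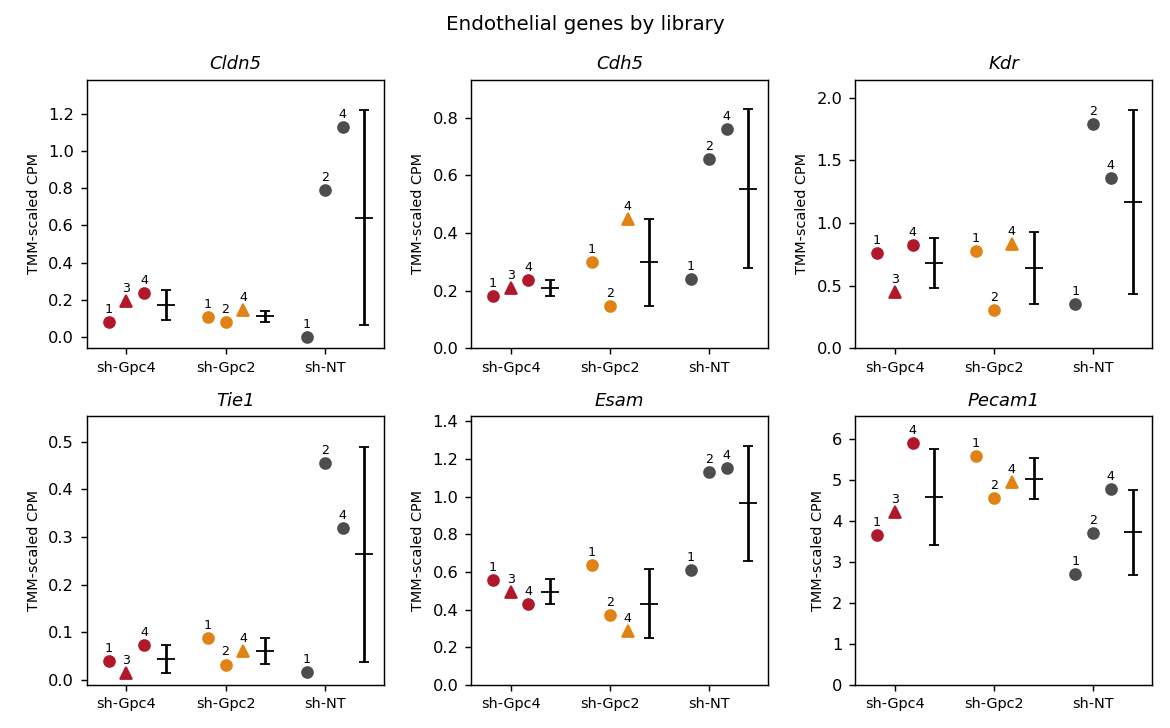
TMM-scaled CPM of 6 endothelial genes in each library; points are libraries with their numbers, triangles mark sh-Gpc4 library 3 and sh-Gpc2 library 4, and black bars are means ± SD (n = 3). For Cldn5, Cdh5, Kdr, Tie1 and Esam the 2 highest libraries are sh-NT 2 and 4 and sh-NT library 1 lies near the knockdown libraries; Pecam1 shows another order, with its highest value, 5.91 CPM, in sh-Gpc4 library 4.

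Pecam1, encoding the adhesion molecule PECAM1 of endothelium, platelets and leukocytes, departed from this order. It had 3.66, 4.21 and 5.91 CPM in the sh-Gpc4 libraries, 5.58, 4.57 and 4.96 CPM in the sh-Gpc2 libraries, and 2.70, 3.71 and 4.78 CPM in the sh-NT libraries. The groups overlapped, and sh-NT library 1 was the lowest. Log2 fold changes were 0.30 (SE 0.24; edgeR adjusted p = 0.569) for sh-Gpc4 over sh-NT and 0.43 (SE 0.24; edgeR adjusted p = 0.968) for sh-Gpc2 over sh-NT. The summed level of 15 microglia genes, among the leukocyte genes of the brain, was 1430, 1420 and 2000 CPM in the sh-Gpc4 libraries, 1750, 546 and 1810 CPM in the sh-Gpc2 libraries, and 1040, 1090 and 1550 CPM in the sh-NT libraries. Its part in the Pecam1 values was not tested. Eng, encoding the TGF-beta co-receptor endoglin, ran from 1.23 to 2.90 CPM. Egfl7, encoding a secreted factor of endothelium, ran from 2.13 to 3.23 CPM, and all groups overlapped for both genes. Exons of Eng overlap those of Fpgs (10.5 to 22.7 CPM), on the opposite strand, over 61 of 4048 bases. Exons of Egfl7 overlap those of Gm20532 (2.04 to 4.56 CPM), on the same strand, over 264 of 3581 bases. They also overlap those of Agpat2 (0.209 to 0.473 CPM), on the opposite strand, over 64 bases. The part of these genes in the Eng and Egfl7 rows was not tested.

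Of the endothelial list, the abundant genes Slco1c1 and Mfsd2a varied little, by 1.45 and 1.37 times between their lowest and highest library. They averaged 72 and 18.8 CPM, against 0.307 CPM for Cldn5 and 0.353 CPM for Cdh5. Which cells their reads came from was not tested. Slco1c1, encoding the thyroxine transporter OATP1C1, which is known from brain endothelium and also from astroglia, had 61.8, 60.8 and 72.5 CPM in the sh-Gpc4 libraries, 66.0, 83.9 and 88.0 CPM in the sh-Gpc2 libraries, and 76.8, 74.2 and 64.3 CPM in the sh-NT libraries. Library 1 of sh-NT, where Cldn5 had no read, had the highest Slco1c1 level of the sh-NT group. Its log2 fold changes were -0.14 (SE 0.13, interval -0.44 to 0.15; edgeR adjusted p = 0.616) for sh-Gpc4 over sh-NT, 0.14 (SE 0.13, interval -0.15 to 0.44; edgeR adjusted p = 0.968) for sh-Gpc2 over sh-NT and -0.29 (SE 0.13, interval -0.58 to 0.01; edgeR adjusted p = 0.966) for sh-Gpc4 over sh-Gpc2.

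Mfsd2a, encoding the lysophosphatidylcholine transporter that carries docosahexaenoic acid across the barrier, had 17.5, 15.6 and 19.3 CPM in the sh-Gpc4 libraries, 20.8, 20.6 and 16.6 CPM in the sh-Gpc2 libraries, and 19.2, 21.5 and 18.1 CPM in the sh-NT libraries. Its groups overlapped, with log2 fold changes of -0.16 (SE 0.14; edgeR adjusted p = 0.581) for sh-Gpc4 over sh-NT and -0.02 (SE 0.14; edgeR adjusted p = 0.991) for sh-Gpc2 over sh-NT.

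Ramp2, encoding the partner of the adrenomedullin receptor, appeared in the table at 58.0, 62.2 and 63.7 CPM in the sh-Gpc4 libraries, 55.7, 64.6 and 65.8 CPM in the sh-Gpc2 libraries, and 54.9, 58.6 and 61.3 CPM in the sh-NT libraries. The neighbouring gene Vps25, an ESCRT subunit gene on the same strand, had 58.4, 62.6 and 64.1 CPM, 56.1, 65.0 and 66.1 CPM, and 55.3, 58.9 and 61.4 CPM in the same libraries. In each library the Ramp2 count was 0.992 to 0.997 times the Vps25 count, and over all libraries the 2 rows held 32116 and 32295 reads. In GENCODE M21, 1103 of the 3301 exonic bases of Ramp2 (33.4%) are also Vps25 exon, and 72.8% of the 100-base windows of the longest Ramp2 transcript occur in Vps25. The Ramp2 row therefore cannot be told apart from a second copy of the Vps25 row, and its fold changes (0.07 for sh-Gpc4 over sh-NT, SE 0.10, and 0.09 for sh-Gpc2 over sh-NT, SE 0.10) are not read here as those of an endothelial gene.

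Of the mural genes, 2 encode receptors that define pericytes and smooth muscle. Pdgfrb, encoding the PDGF receptor through which endothelium recruits pericytes, had 4.57, 1.41 and 3.05 CPM in the sh-Gpc4 libraries, 3.99, 6.08 and 2.06 CPM in the sh-Gpc2 libraries, and 5.75, 8.44 and 5.17 CPM in the sh-NT libraries. All 3 sh-Gpc4 libraries lay below all 3 sh-NT libraries, and the lowest values of all were those of sh-Gpc4 library 3 and sh-Gpc2 library 4. Its log2 fold change was -1.11 (SE 0.46, interval -2.14 to -0.08) for sh-Gpc4 over sh-NT, with an unadjusted p of 0.0379 and an adjusted p of 0.488 by edgeR, and -0.77 without both of those libraries. For sh-Gpc2 over sh-NT it was -0.67 (SE 0.45, interval -1.69 to 0.35; edgeR adjusted p = 0.968), -0.37 without both and -1.09 without sh-Gpc2 library 2.

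Notch3, encoding the Notch receptor of vascular smooth muscle, had 7.37, 3.15 and 4.79 CPM in the sh-Gpc4 libraries, 10.7, 10.8 and 3.11 CPM in the sh-Gpc2 libraries, and 10.2, 13.0 and 9.38 CPM in the sh-NT libraries. Here sh-Gpc2 libraries 1 and 2 were inside the sh-NT range, while sh-Gpc2 library 4 and all sh-Gpc4 libraries were below it. The log2 fold change was -1.09 (SE 0.44, interval -2.09 to -0.10; unadjusted p = 0.0348, edgeR adjusted p = 0.488) for sh-Gpc4 over sh-NT, and -0.85 without both libraries that stand apart. For sh-Gpc2 over sh-NT it was -0.40 (SE 0.44; edgeR adjusted p = 0.968), and -0.02 without sh-Gpc2 library 4. The knockdowns differed by -0.69 (SE 0.44; edgeR adjusted p = 0.966) for sh-Gpc4 over sh-Gpc2.

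Pdgfrb and Notch3 are not restricted to vessels, Notch3 being known from neural progenitors too. Of 11 radial glia genes, 4 (Nes, Hes5, Tnc and Ptprz1) had sh-Gpc4 library 3 and sh-Gpc2 library 4 as their lowest pair of libraries (36.4%, against 21.0% of all tested genes), a pattern looked for after the values were seen. Nes, encoding the intermediate filament nestin, had 46.5, 24.6 and 33.8 CPM in the sh-Gpc4 libraries, 50.4, 62.2 and 28.0 CPM in the sh-Gpc2 libraries, and 54.9, 57.9 and 46.8 CPM in the sh-NT libraries. Other radial glia genes did not follow, Fabp7 being highest in sh-Gpc2 library 4 (827 CPM) and Sox2 (21.1 CPM) there lying above every sh-NT library. Over the 11 genes the summed level was 2860, 2090 and 2590 CPM in the sh-Gpc4 libraries, 2860, 3570 and 2510 CPM in the sh-Gpc2 libraries, and 2740, 2890 and 2590 CPM in the sh-NT libraries. Their median log2 fold change for sh-Gpc4 over sh-NT was -0.07, with 8 of 11 below 0, against 0.02 and 47.2% over all tested genes. The part of neural progenitors in the Pdgfrb and Notch3 values was not tested. Cspg4, which encodes the proteoglycan NG2 and is no member, had 0.539, 0.255 and 0.412 CPM in the sh-Gpc4 libraries, 0.565, 0.936 and 0.448 CPM in the sh-Gpc2 libraries, and 0.821, 1.43 and 0.672 CPM in the sh-NT libraries. It is among 20 other mural genes and was named after its values were seen. Of the 15 of these tested, 9 had a log2 fold change below 0 for sh-Gpc4 over sh-NT and 6 above 0. The sh-Gpc4 libraries lay entirely below sh-NT for 4 of them and entirely above for 2, against 13.2% and 10.8% of all tested genes.

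**Figure D4:**
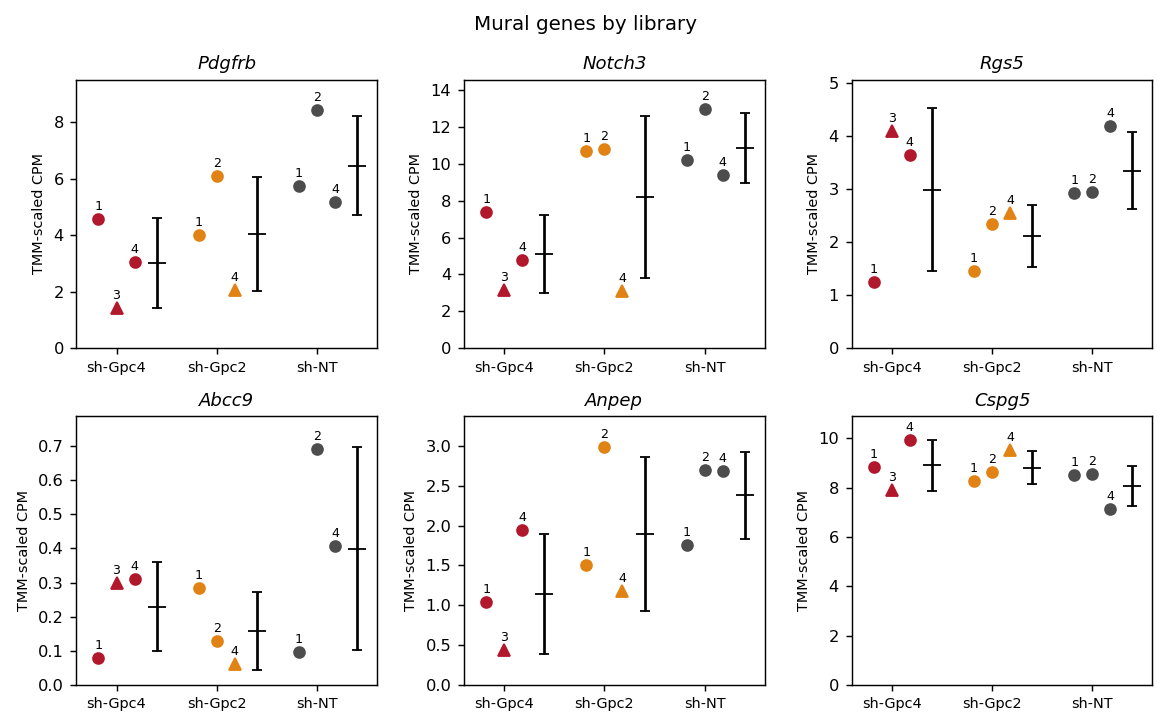
TMM-scaled CPM of 6 mural genes in each library, drawn as for the endothelial genes, with bars of mean ± SD (n = 3) and triangles for sh-Gpc4 library 3 and sh-Gpc2 library 4. Pdgfrb and Notch3 are lowest in those 2 libraries, Rgs5 is lowest in libraries 1 of sh-Gpc4 and sh-Gpc2, and Cspg5 lies between 7.15 and 9.94 CPM everywhere.

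Rgs5, a regulator of G-protein signalling and a pericyte marker, had 1.24, 4.09 and 3.65 CPM in the sh-Gpc4 libraries, 1.45, 2.34 and 2.56 CPM in the sh-Gpc2 libraries, and 2.93, 2.94 and 4.19 CPM in the sh-NT libraries. Its order was not that of Pdgfrb, since sh-Gpc4 library 3 was next to the highest. The log2 fold changes were -0.15 (SE 0.39; edgeR adjusted p = 0.866) for sh-Gpc4 over sh-NT and -0.66 (SE 0.40; edgeR adjusted p = 0.968) for sh-Gpc2 over sh-NT, the sh-Gpc2 libraries lying below all sh-NT libraries.

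Kcnj8 and Abcc9 encode the channel and sulfonylurea receptor subunits of the potassium channel of pericytes. Kcnj8 had 5, 15 and 15 reads in the sh-Gpc4 libraries, 5, 8 and 5 reads in the sh-Gpc2 libraries, and 13, 13 and 14 reads in the sh-NT libraries. All sh-Gpc2 values were below all sh-NT values, and the fold change in log2 was -1.06 (SE 0.37, interval -1.88 to -0.23; unadjusted p = 0.0172, edgeR adjusted p = 0.968). For sh-Gpc4 the fold change of Kcnj8 was -0.27 over sh-NT (SE 0.33; edgeR adjusted p = 0.723) and 0.79 over sh-Gpc2 (SE 0.37; edgeR adjusted p = 0.966). Abcc9 had 4, 20 and 21 reads, 16, 8 and 3 reads, and 6, 41 and 23 reads in the same order, and its groups overlapped.

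Anpep, encoding the pericyte surface peptidase CD13, had 1.04, 0.435 and 1.94 CPM in the sh-Gpc4 libraries, 1.5, 2.99 and 1.18 CPM in the sh-Gpc2 libraries, and 1.75, 2.70 and 2.69 CPM in the sh-NT libraries. The groups overlapped, and the log2 values were -1.06 (SE 0.50; edgeR adjusted p = 0.488) for sh-Gpc4 over sh-NT and -0.33 (SE 0.49; edgeR adjusted p = 0.968) for sh-Gpc2 over sh-NT. Anpep was -1.71 without sh-Gpc4 library 4 and -0.65 without sh-Gpc4 library 3 for sh-Gpc4, and -0.83 without sh-Gpc2 library 2 and -0.08 without sh-Gpc2 library 4 for sh-Gpc2. Vtn, encoding vitronectin, ran from 0.0599 to 0.928 CPM, and Higd1b, which did not pass the filter, had 39 reads in all.

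Of the smooth muscle genes, Acta2, encoding alpha smooth muscle actin, had 1.14, 0.105 and 0.368 CPM in the sh-Gpc4 libraries, 0.300, 1.47 and 0.285 CPM in the sh-Gpc2 libraries, and 0.322, 0.489 and 0.283 CPM in the sh-NT libraries. Single libraries, sh-Gpc4 1 and sh-Gpc2 2, carried its high values. Among 11 meningeal fibroblast genes, the collagen genes Col1a1 (7.93 CPM), Col1a2 (3.12 CPM) and Col3a1 (1.42 CPM) were highest in sh-Gpc4 library 1. In that library Dcn (0.659 CPM), Ogn (6.45 CPM) and Lum (0.0599 CPM) lay within the range of the others. In sh-Gpc2 library 2, Col1a2 (2.97 CPM) and Col3a1 (0.678 CPM) were next to the highest and Lum (0.161 CPM) was the highest. Col1a1 (0.952 CPM), Dcn (0.629 CPM) and Ogn (6.50 CPM) there lay within the range of the others. The part of these fibroblast genes' cells in the Acta2 values was not tested. Tagln, encoding transgelin, had 1.86, 1.69 and 1.71 CPM in the sh-Gpc4 libraries, 1.62, 1.53 and 1.55 CPM in the sh-Gpc2 libraries, and 1.93, 1.91 and 1.89 CPM in the sh-NT libraries. Its groups did not overlap in any of the 3 comparisons, with small log2 fold changes of -0.12 for sh-Gpc4 over sh-NT (SE 0.14; edgeR adjusted p = 0.675) and -0.28 for sh-Gpc2 over sh-NT (SE 0.14; edgeR adjusted p = 0.968). The antisense transcript Gm48529 overlaps 62.4% of the exonic bases of Tagln, and the count of Tagln was 0.861 to 1.22 times that of Gm48529 in each library. Exons of Pcsk7 (24.8 to 43.4 CPM), on the opposite strand, overlap 108 of the 1988 exonic bases of Tagln. Since the strand setting is unknown, reads of the shared bases cannot be assigned to one of these genes here.

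Cspg5 stood apart from the rest of its class. It encodes neuroglycan C, a proteoglycan of neural cells, and the mural gene of similar name is Cspg4. Its level was 8.85, 7.90 and 9.94 CPM in the sh-Gpc4 libraries, 8.26, 8.63 and 9.54 CPM in the sh-Gpc2 libraries, and 8.50, 8.57 and 7.15 CPM in the sh-NT libraries. The groups overlapped and the log2 fold changes were 0.14 (SE 0.14; edgeR adjusted p = 0.635) for sh-Gpc4 over sh-NT and 0.13 (SE 0.14; edgeR adjusted p = 0.968) for sh-Gpc2 over sh-NT.

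Taking sh-Gpc4 against sh-NT over all members, 0 of the 25 tested passed an adjusted p of 0.05 by edgeR, where 0% of all 27773 tested genes did. The smallest adjusted p was 0.488, and 2657 genes (9.57%) were under an unadjusted p of 0.05 in edgeR. DESeq2 called 45 genes (0.165%) with no member among them, and limma voom called 0. At an unadjusted p under 0.05, 3 of 11 endothelial genes (Cdh5, Flt1 and Esam) and 2 of 10 mural genes (Pdgfrb and Notch3) were lower and none was higher, against 6.01% lower and 3.56% higher among all tested genes. The sh-Gpc4 libraries lay entirely below the sh-NT libraries for 2 endothelial genes (Cdh5 and Esam) and 3 mural genes (Pdgfrb, Notch3 and Tagln), against 13.2% of all tested genes, and entirely above them for 0 members, against 10.8%. The median log2 fold change was -0.27 over the tested endothelial genes (range -1.85 to 0.30), -0.30 over the mural genes (range -1.11 to 0.50) and 0.28 over the erythroid genes (range 0.06 to 0.44), against 0.02 over all tested genes. Fold changes below 0 were found for 9 of 11 endothelial, 8 of 10 mural and 0 of 4 erythroid genes, against 47.2% of all tested genes. Here and in the other comparisons, the endothelial counts and medians include Ramp2, Slco1c1 and Mfsd2a, and the mural ones include Tagln and Cspg5. Reads of Ramp2 and Tagln cannot be told apart from those of overlapping genes, and Cspg5 is known from neural cells. The endothelial median was -1.21 when sh-NT library 1 was left out, the mural median was -0.54 without sh-Gpc4 library 3 and -0.18 without sh-NT library 2, and the erythroid median was -0.08 when sh-Gpc4 library 3 was left out.

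Between sh-Gpc2 and sh-NT, 0 of 25 members passed an adjusted p of 0.05 by edgeR (0% of all tested genes), the smallest adjusted p was 0.968, and DESeq2 and limma voom called 0 genes. In edgeR 712 genes (2.56%) were under an unadjusted p of 0.05. Among the members, Cldn5 and Esam of 11 endothelial genes and Kcnj8 of 10 mural genes were lower at that level and none was higher, against 0.947% lower and 1.62% higher over all tested genes. The groups did not overlap, with sh-Gpc2 lower, for 3 mural genes (Kcnj8, Rgs5 and Tagln) and for 0 endothelial genes, against 4.11% of all tested genes; sh-Gpc2 was higher without overlap for 0 members, against 3.59%. The median log2 fold changes were -0.23 over the endothelial genes, -0.53 over the mural genes and 0.21 over the erythroid genes, against 0 over all tested genes. Fold changes below 0 were found for 7 of 11 endothelial, 8 of 10 mural and 1 of 4 erythroid genes, against 49.3% of all tested genes. The endothelial median was -1.20 when sh-NT library 1 was left out, and the mural median was -0.32 without sh-Gpc2 library 4. This comparison and the preceding one share the sh-NT libraries, so their values are not independent of each other.

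**Figure D5:**
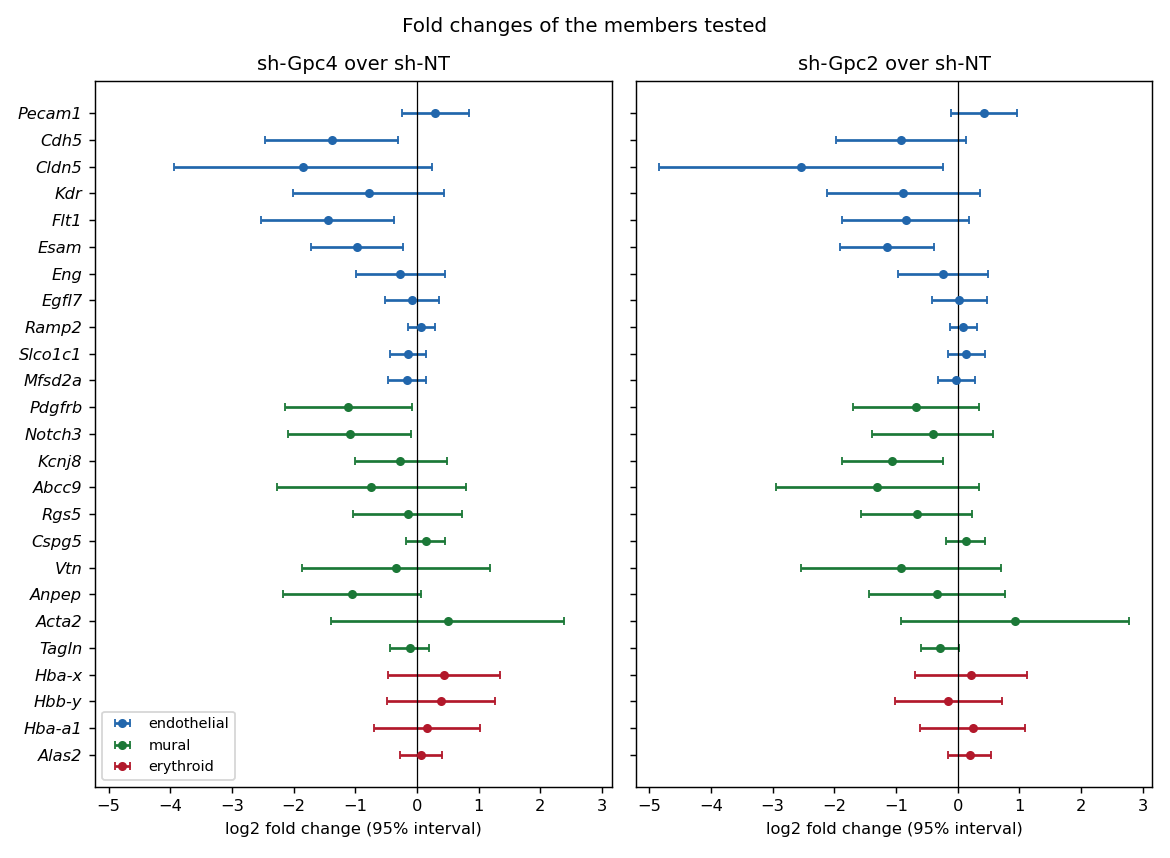
Log2 fold change of the 25 tested members, with 95% intervals from the edgeR fit, for sh-Gpc4 over sh-NT (left panel) and sh-Gpc2 over sh-NT (right panel); colours mark the classes and the vertical line marks 0. The junction and receptor genes from Cdh5 to Esam lie left of 0 in both panels with wide intervals, and the abundant genes Ramp2, Slco1c1 and Mfsd2a lie near 0 with narrow ones. The erythroid genes lie right of 0, apart from Hbb-y in the right panel, and their intervals span 0.

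For sh-Gpc4 over sh-Gpc2, 0 of 25 members passed an adjusted p of 0.05 by edgeR (0% of all tested genes; smallest adjusted p 0.966), and none was past an unadjusted p of 0.05, where 2.89% of all tested genes (804) were, 1.09% higher and 1.8% lower. DESeq2 and limma voom called 0 genes. Only Tagln had libraries that did not overlap, with sh-Gpc4 higher, against 3.5% of all tested genes, and no member had sh-Gpc4 lower without overlap, against 2%. Medians of the log2 fold change were -0.11 over the endothelial, 0.09 over the mural and 0.07 over the erythroid genes, against 0 over all tested genes. Fold changes below 0 were found for 8 of 11 endothelial, 4 of 10 mural and 2 of 4 erythroid genes, against 50.5% of all tested genes. The erythroid median was -0.16 without sh-Gpc4 library 3.

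Further vascular and blood genes were followed as lists. Of 25 other endothelial genes, 20 were tested, and at an unadjusted p under 0.05 by edgeR 2 were lower and 0 higher in sh-Gpc4 over sh-NT (against 6.01% lower and 3.56% higher over all tested genes). In sh-Gpc2 over sh-NT, 1 was lower and 0 higher (against 0.947% and 1.62%), and in sh-Gpc4 over sh-Gpc2 none was past that level in either direction (against 1.8% lower and 1.09% higher). The same background shares apply to the next lists. The most abundant were Slc2a1, encoding the glucose transporter GLUT1 (47.4 to 99.6 CPM), Fli1, an ETS factor (4.39 to 16.7 CPM), and Rasip1, a regulator of vessel lumen formation (7.10 to 9.35 CPM). Of 20 other mural genes, 15 were tested, with 3 lower and 1 higher at that level in sh-Gpc4 over sh-NT, 0 lower and 2 higher in sh-Gpc2 over sh-NT, and 1 lower (Cd248) and 0 higher in sh-Gpc4 over sh-Gpc2. The most abundant were the actin-binding caldesmon gene Cald1 (50.6 to 59.3 CPM) and the sphingosine phosphate receptor gene S1pr3 (5.74 to 29.4 CPM). Of 22 other erythroid genes, 21 had a row and 15 were tested, and none was past that level in either comparison with sh-NT, while in sh-Gpc4 over sh-Gpc2 the carbonic anhydrase gene Car2 was lower (-0.91, SE 0.23; unadjusted p = 0.00319, edgeR adjusted p = 0.966). The most abundant were Bpgm, encoding bisphosphoglycerate mutase (54.5 to 81.4 CPM), the transferrin receptor gene Tfrc (50.8 to 73.7 CPM) and the ferrochelatase gene Fech (39.8 to 54.2 CPM), which many cell types express.

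Of 22 genes of signals that act on vessels, 21 were tested, with 4 lower and 0 higher at an unadjusted p under 0.05 by edgeR in sh-Gpc4 over sh-NT (against 6.01% and 3.56% over all tested genes), 0 in either direction in sh-Gpc2 over sh-NT (against 2.56%), and 3 lower (Dll4, Epo and Kitl) and 0 higher in sh-Gpc4 over sh-Gpc2 (against 1.8% and 1.09%). Nrp1, encoding a co-receptor for VEGF and semaphorins, was the most abundant, at 497 to 666 CPM. Wnt7b, a Wnt ligand by which neural progenitors guide vessel growth into the brain, had 82.5, 36.2 and 50.9 CPM in the sh-Gpc4 libraries, 183, 111 and 40.7 CPM in the sh-Gpc2 libraries, and 137, 178 and 149 CPM in the sh-NT libraries. All sh-Gpc4 values were below the sh-NT values, as were those of sh-Gpc2 libraries 2 and 4, and for sh-Gpc4 over sh-NT the log2 fold change was -1.45 (SE 0.47; edgeR adjusted p = 0.488). Of 8 platelet genes, 4 were tested, with 1 lower at that level in sh-Gpc4 over sh-NT (against 6.01%) and none in the other comparisons, and of 11 meningeal fibroblast genes 5 were tested with none past it.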

How the data were processed

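RNA was measured in 9 libraries of sorted cells, 3 each for sh-Gpc4, sh-Gpc2 and sh-NT. RNA isolation used the PicoPure kit, per the labels' protocols, and libraries were made with the NEBNext single cell and low input kit, which amplifies cDNA. The authors deposited raw read counts per gene, counted with featureCounts of Subread per the submitters' processing notes, which name GRCm38 and mm10. For the aligner, annotation release, versions and strand setting nothing is given in the sources used here. Overlapping genes therefore cannot be separated. Column numbers do not match the replicate numbers of the titles, so a column was tied to a group only.

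Symbols, exons and gene coordinates came from GENCODE M21 (51486 of 78275 IDs, 65.8%, had a symbol) and promoters from RefSeq. Exon overlaps and levels per kilobase rest on M21 and may differ from the annotation used for counting. The counts as deposited were fitted in R 4.3.3 with the edgeR 4.0.16 quasi-likelihood test over all 9 libraries, 1 coefficient per group, TMM scaling and the default filter on low counts, with Benjamini-Hochberg adjustment over 27773 genes and a threshold of 0.05. SE values follow from the fold change and the test's F, and intervals are 95%. Alternatives were DESeq2 1.42.0, limma 3.58.1 voom with sample weights, other scaling and filters, a replicate block and leaving out libraries; leaving out both libraries that stand apart was chosen after seeing the data. The members and all lists were chosen with earlier results of these data known. All members are named, and of other lists up to 3 of the most abundant genes, while a few others were named after their values were seen. Shares of reads have 95% Wilson intervals, which like the floor of 3 reads cover counting error only, since amplified reads are not independent molecules. On simulated counts for sh-Gpc4 against sh-NT (27336 genes), 44% of 100 genes changed by a log2 of 1 and 98% of 100 changed by a log2 of 2 were recovered. In the same run 6 unchanged genes were called. Each gene was drawn independently, without the variation that genes share between the real libraries, so these shares may not hold for the real counts. The changed genes were drawn only from those with a mean above 1 CPM. These shares therefore do not apply to the 13 of 19 endothelial and 5 of 11 mural genes below that level.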

Additional observations from a re-analysis of the deposited data

How the results depend on the processing

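No member passed an adjusted p of 0.05 under any alternative run, by edgeR, DESeq2 or limma voom. The DESeq2 Wald test called 45 genes in sh-Gpc4 over sh-NT, where edgeR called 0. Depth limits the genes below 1 CPM, and for those with only a few reads per library these reads set the fold change. Without the filter, which brings in all 19 endothelial genes, the endothelial median was -0.79 for sh-Gpc4 over sh-NT and -0.84 for sh-Gpc2 over sh-NT, and over the leave-one-out fits (11 to 13 genes tested) it ran from -1.21 to -0.22 and from -1.20 to -0.18. Limma voom with sample weights gave log2 fold changes of 1.16 and 0.30 for Cldn5 in these 2 comparisons and -0.06 for Hbb-y in sh-Gpc4 over sh-NT. The cause was not tested.

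Same-numbered libraries did not deviate together in every pair (correlations from -0.101 to 0.682), so the numbers were not taken as pairs. With a replicate block by column number edgeR still called 0 genes in all 3 comparisons, and sh-Gpc4 over sh-NT was -0.06 for Hba-x, -0.17 for Hbb-y and -0.22 for Hba-a1, while Hbb-y was -0.04 in sh-Gpc4 over sh-Gpc2. Without both libraries that stand apart, sh-Gpc4 over sh-NT was -0.02 for Hba-x, -0.17 for Hbb-y and -0.25 for Hba-a1, and sh-Gpc2 over sh-NT was 0.06 for Mfsd2a.

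Leaving out each library in turn also turned signs. For sh-Gpc4 over sh-NT the values ran from -0.43 to 0.21 for Rgs5, from -0.01 to 0.71 for Hba-x, from -0.15 to 0.64 for Hbb-y, from -0.24 to 0.58 for Hba-a1 and from -0.02 to 0.13 for Alas2. For sh-Gpc2 over sh-NT they ran from -0.06 to 0.49 for Hba-x, from -0.38 to 0.09 for Hbb-y and from -0.08 to 0.08 for Mfsd2a, and for sh-Gpc4 over sh-Gpc2 from -0.02 to 0.79 for Hbb-y. Fold changes of Cdh5, Flt1, Esam, Pdgfrb and Notch3 stayed below 0 in both comparisons with sh-NT in each leave-one-out fit. Those of Cldn5, Kdr, Kcnj8, Anpep and Tagln did so too. Cdh5, Flt1, Esam, Pdgfrb and Notch3 had been named for their unadjusted p in sh-Gpc4 over sh-NT, so their signs are no independent test. Cldn5, Cdh5, Kdr, Flt1 and Esam were highest in sh-NT libraries 2 and 4, and each fit kept library 2, library 4 or both. Whether their fold changes rest on these libraries together was therefore not tested.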
